A study of Homo sapiens with 16 samples.

Results

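Untreated HCC827 cells were compared with untreated H441 cells across all genes. Both are human lung adenocarcinoma lines, and both belong to the line pair that the labels call non-responsive to a combination of a MYC inhibitor and a class IIa histone deacetylase inhibitor. The comparison uses 4 of the 16 RNA libraries of the series: HCC827 given vehicle, libraries 1 and 2, and H441 given vehicle, libraries 1 and 2, chosen by their labels. Vehicle was DMSO for 48 h, begun 1 day after plating in RPMI with 10% serum. Sample labels assign the other 12 libraries to the same pair of lines given 5 µM MYCi975 (the MYC inhibitor) with 25 µM TMP195 (the deacetylase inhibitor), and to H460 and H1703, called responsive, given vehicle or that combination. Each group had 2 libraries, and each genotype here is 1 cell line, so a difference between HCC827 and H441 cannot be told apart from any other property in which these particular lines differ. Whether the 2 libraries of a group are separate cultures is not said in the labels. The p-values thus measure only the spread between libraries of a group, which may be technical. That spread was estimated over all 8 groups of the series. The other lines and the combination libraries therefore enter each p-value, unless a fit with fewer libraries is named.

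HCC827 is known for an activating deletion in EGFR, the receptor for epidermal growth factor, and for extra copies of that gene. Such receptors signal through RAS GTPases to the RAF, MEK and ERK kinases. H441 has been used as a model of the distal airway because it keeps traits of club cells and alveolar type 2 cells. Alveolar type 2 cells make surfactant, the mixture of lipids and proteins that keeps alveoli open, and the transcription factor NKX2-1 drives many of their genes. Mutations and copy numbers were not measured here: the values below are RNA levels.

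The 4 libraries held 9115712 and 10859162 reads for HCC827 and 9710301 and 9885733 reads for H441 in the listed genes. Mitochondrial genes took 21.2% and 22.6% of the reads in HCC827, against 17.3% and 17.7% in H441. Most of these reads were of 1 ribosomal RNA, MT-RNR2, with 19.7% and 21.0% of all reads in HCC827 and 16.1% and 16.5% in H441. The epithelial markers EPCAM, CDH1, KRT7, KRT8, KRT18 and KRT19 were high in both lines, and KRT7 had 16612 and 15370.1 normalised reads in HCC827, against 15968 and 16402 in H441. Of 12 markers of blood, endothelial and fibroblast cells, 8 were in the table, with a sum of 60 and 86 reads in the HCC827 libraries and 175 and 227 in the H441 libraries, of which COL3A1 gave none. In H441 those reads were mostly of COL1A1 and LUM, both matrix genes of fibroblasts, while LUM had 1 and 2 reads in HCC827. Their part in the results was not tested.

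Of 23968 genes tested, 10714 (44.7%) passed an adjusted p of 0.05 in limma, the test used throughout. Of these, 5691 (23.7% of the genes tested) were higher in HCC827 and 5023 (21.0%) were lower. Without a test, both libraries of one line lay above both of the other for 16547 genes (69.0%). A difference of at least 1 on the log2 scale was found for 5976 of the called genes (24.9%), 3383 higher and 2593 lower in HCC827. Among protein-coding genes 4363 were higher (29.8%) and 4072 lower (27.8%) of 14656, or 57.6% in all, and a gene list is best read against that share, since 29.5% of long non-coding RNA genes and 17.9% of pseudogenes passed. The median difference over all genes was 0.03 with the deposited scaling. Centring each library on its own median moved it to -0.17, with 4327 genes higher and 6323 lower in HCC827 (40.6% higher, against 53.1% with the deposited scaling), so small differences depend on the scaling. Differences below are HCC827 minus H441 on the deposited log2 scale, with the SE of the fit, and understate the change of weakly expressed genes. Normalised reads are reads divided by a size factor for each library, and they are not corrected for gene length.

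**Figure D1:**
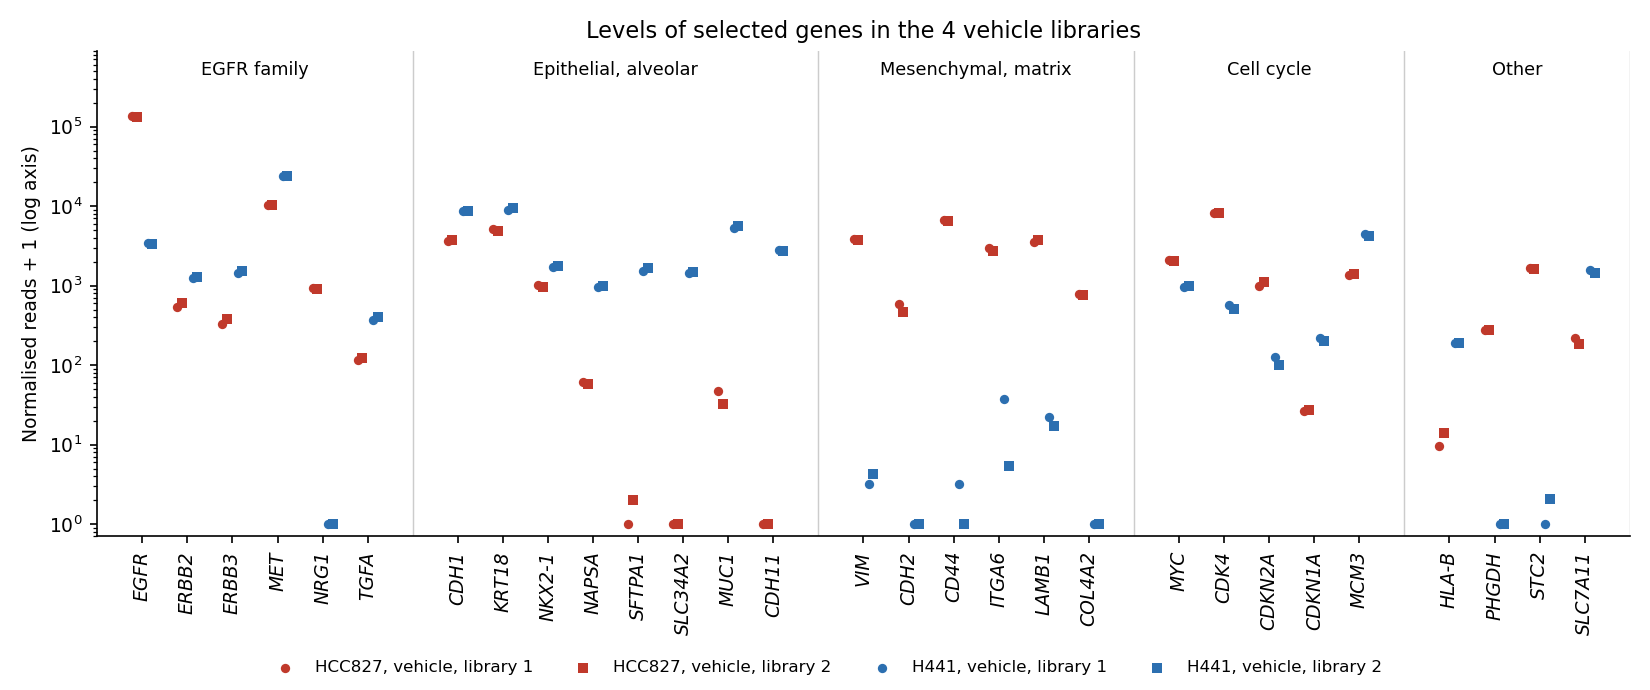
Levels of selected genes in the 4 vehicle libraries, as normalised reads plus 1 on a log axis, with HCC827 in red left of H441 in blue, circles for library 1 and squares for library 2; a point at 1 had 0 reads. EGFR, VIM, CD44 and CDK4 lie above H441 in both HCC827 libraries, while MUC1, SFTPA1, SLC34A2, CDH11 and CDKN1A lie below it.

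EGFR, at chr7:55019021-55211628 (GRCh38), was among the most abundant mRNAs of HCC827. It had 136029 and 131564 normalised reads in HCC827, against 3484 and 3372 in H441, a difference of 5.29 ± 0.06 (adjusted p = 1.16e-22). H460 had 1361 and 1382 normalised reads and H1703 4783 and 4920, so HCC827 stood above each of the other lines. The genes beside EGFR were high as well. All 11 tested protein-coding genes within 2 Mb of it were higher in HCC827, against 29.8% of all protein-coding genes, with a median difference of 2.97 and a range of 1.90 to 5.54. SEC61G, a subunit of the channel that moves new proteins into the endoplasmic reticulum, had 4648 and 4242 normalised reads in HCC827, against 125 and 142 in H441. LANCL2, which encodes a lanthionine synthetase-like protein, had 4626 and 4695 in HCC827, against 85.0 and 112 in H441. VOPP1, the next gene, had 8938 and 8065 in HCC827, against 248 and 289.7 in H441. Farther on, PSPH, the last enzyme of serine synthesis, had 1811 and 1921 in HCC827, against 219 and 254 in H441, a difference of 2.97 ± 0.11 (adjusted p = 2.87e-14). The smallest difference within 2 Mb, 1.90 ± 0.12 (adjusted p = 5.28e-11), was that of NIPSNAP2, a mitochondrial protein.

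Farther out, beyond SEC61G and outside the 2 Mb, the pattern was broken. GRB10, an adaptor that binds activated receptors, had 1503 and 1414 normalised reads in HCC827, against 123 and 132 in H441. COBL and FIGNL1, which flank GRB10, were not past the threshold, with differences of 0.04 ± 0.13 (adjusted p = 0.823) and 0.11 ± 0.10 (adjusted p = 0.403). Around ERBB2 20 of 52 neighbours were higher and 7 lower, and around MET 2 of 7 were higher and 4 lower. Around CCND1, in contrast, 18 of 25 neighbours were lower in HCC827 and 2 higher, with a median of -0.66. DNA copies were not measured.

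**Figure D2:**
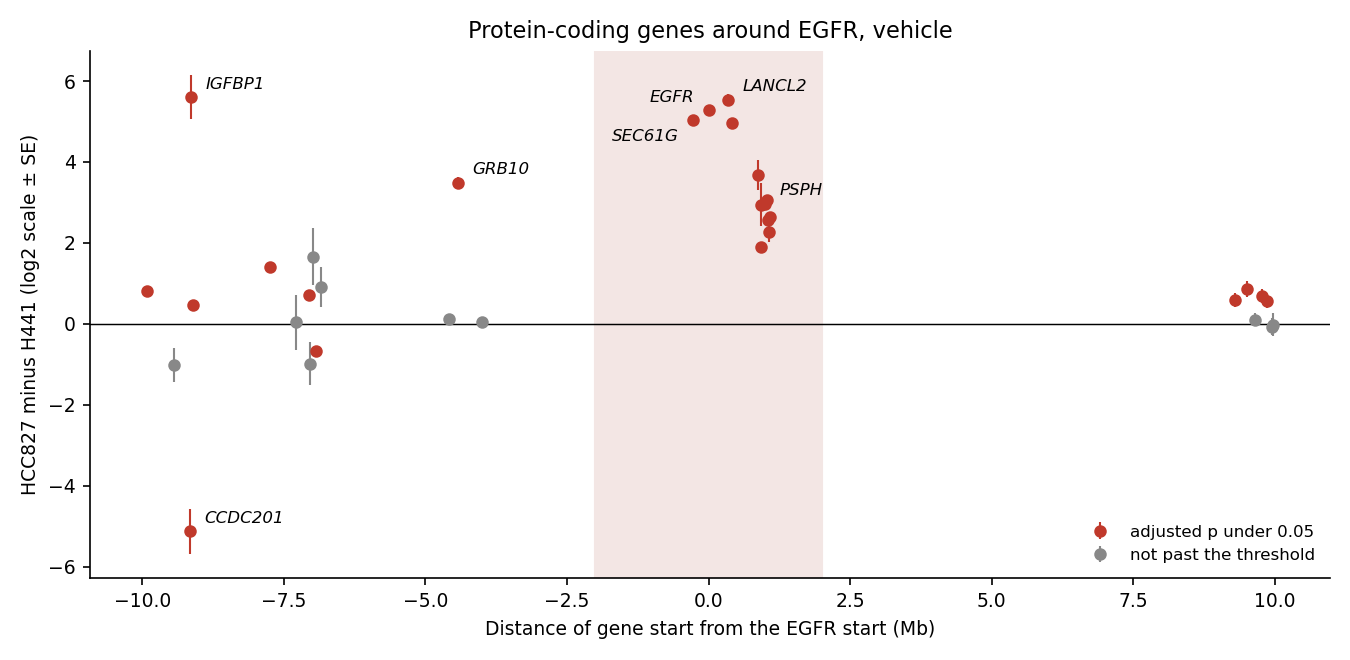
HCC827 minus H441 difference (log2 scale, bars SE) of each tested protein-coding gene by the distance of its start from the EGFR start in Mb; the shaded band marks 2 Mb on either side, and grey points did not pass the threshold. All 12 points in the band, EGFR included, lie between 1.90 and 5.54.

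ERBB2 and ERBB3 of the EGFR family, MET and DDR1 were lower in HCC827, while other receptor tyrosine kinases were higher. ERBB2, the partner that EGFR dimerises with, had 544 and 601 normalised reads in HCC827, against 1249 and 1284 in H441 (difference -1.14 ± 0.14, adjusted p = 6.36e-07). ERBB3, the receptor for neuregulins, had 324 and 383 in HCC827, against 1441 and 1514 in H441 (-2.06 ± 0.26, adjusted p = 1.27e-06). MET, the hepatocyte growth factor receptor, had 10257 and 10353 in HCC827, against 24248 and 23869.5 in H441 (-1.22 ± 0.08, adjusted p = 1.12e-10). The 3 genes were lower in both HCC827 libraries than in either H441 library, as 1 line was above the other for 69.0% of all genes. DDR1, a collagen receptor, was lower by more, with 82.4 and 96.2 normalised reads in HCC827, against 686 and 739 in H441. FGFR1 went the other way, with 215 and 205 in HCC827, against 3.31 and 4.34 in H441 (5.08 ± 0.13, adjusted p = 1.08e-16). The insulin receptor INSR was higher in HCC827 too (1.50 ± 0.16, adjusted p = 1.15e-07). Over the 25 receptor tyrosine kinases tested, 7 were higher and 8 lower in HCC827. That is close to the shares over protein-coding genes (29.8% higher and 27.8% lower), so the list had no common direction.

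Among 10 tested ligands of the family, 3 were higher and 2 lower in HCC827. NRG1, the neuregulin that binds ERBB3, had 934 and 905 normalised reads in HCC827 and no read in either H441 library, at least 559-fold higher against a floor of 3 reads over the H441 group. TGFA, an EGFR ligand, had 114 and 123 in HCC827, against 368 and 401 in H441 (-1.68 ± 0.32, adjusted p = 0.000233). EGF was low in HCC827, with 8.48 and 8.10 normalised reads, against 42.0 and 39.1 in H441 (-1.99 ± 0.39, adjusted p = 0.00031). AREG, with 211 and 269 in HCC827 and 472 and 475 in H441, did not pass the threshold (-0.98 ± 0.57, adjusted p = 0.191). EREG and HBEGF did not pass either, with adjusted p of 0.722 and 0.736. AREG and EREG passed with only the 4 libraries compared (adjusted p = 0.00698 and 0.0345) and with voom on the recovered reads (adjusted p = 4.23e-05 and 0.00227). Given vehicle, H460 had 0 and 5.51 normalised reads of each and H1703 had none, and those libraries also enter the SE of the full fit.

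RAS and RAF genes were mostly lower in HCC827: 12 of 20 tested were lower and 2 higher, with a median of -0.35. NRAS, a RAS GTPase, was higher, with 1344 and 1289 normalised reads in HCC827, against 634 and 552 in H441 (1.15 ± 0.10, adjusted p = 4.91e-09). BRAF, the kinase below RAS, had 658 and 671 in HCC827, against 1488 and 1474 in H441 (-1.15 ± 0.10, adjusted p = 1.49e-08). MAPK3, which encodes ERK1, had 103 and 129.6 in HCC827, against 321 and 294 in H441.

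Genes known to be induced by ERK, or to feed back on it, were also more often lower than higher: 12 of 25 were lower in HCC827 and 4 higher, with a median of -0.69. DUSP6, the phosphatase that switches ERK off and that ERK induces, had 143 and 185 normalised reads in HCC827, against 898 and 903 in H441 (-2.45 ± 0.47, adjusted p = 0.00176). EMP1, an epithelial membrane protein, had 218 and 219 in HCC827, against 1282 and 1497 in H441 (-2.65 ± 0.24, adjusted p = 1.48e-08). SPRED1, an inhibitor of RAS signalling, was lower by -1.29 ± 0.10 (adjusted p = 1.27e-09), and FOSL1, an AP-1 subunit, by -0.69 ± 0.12 (adjusted p = 7.72e-05). The exceptions were few. ETV1, an ETS transcription factor, had 565 and 674 in HCC827, against 71.8 and 71.6 in H441 (3.06 ± 0.23, adjusted p = 8.74e-10), and DUSP4 was higher by 1.15 ± 0.21 (adjusted p = 0.000156, but 0.101 with voom on the recovered reads). CCND1, the cyclin of early G1, was at 9365 and 9368 in HCC827 and 9051 and 9023 in H441 and did not pass (0.05 ± 0.08, adjusted p = 0.636).

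The alveolar type 2 and club cell lists leaned to H441. Of 18 tested alveolar type 2 genes, 10 were lower and 5 higher in HCC827, with a median of -1.77, or -1.30 with genes at 0 reads set to their bound. Of 12 tested club and secretory genes 8 were lower and 1 was higher, with a median of -2.10. Only 18 of 22 listed alveolar type 2 genes and 15 of 24 listed club and secretory genes had values. Among the latter, SCGB3A2 had no read in either line given vehicle. CYP2F1, with 2 reads over the HCC827 libraries and 8 over those of H441, did not pass (adjusted p = 0.229). Of 10 alveolar type 1 genes 3 were higher and 4 lower, with a median of -0.14. The promoters of a pair of surfactant genes are shown because NKX2-1 is known to act at surfactant promoters. Each is 300 bases, from 250 before to 50 after the start, from RefSeq (GRCh38.p14). Capitals mark the 6 bases CTCAAG, a core of NKX2-1 motifs, or CTTGAG, the same letters on the other strand. The windows are chr10:79610689-79610988, plus strand, for SFTPA1 and chr10:79560358-79560657, minus strand, for SFTPA2. The SFTPA1 start is the first base of the gene as counted. SFTPA2 has 2 starts in the table and the more upstream is shown, which lies just outside the gene as counted; the window of its other start, inside the gene, holds no match.
SFTPA1: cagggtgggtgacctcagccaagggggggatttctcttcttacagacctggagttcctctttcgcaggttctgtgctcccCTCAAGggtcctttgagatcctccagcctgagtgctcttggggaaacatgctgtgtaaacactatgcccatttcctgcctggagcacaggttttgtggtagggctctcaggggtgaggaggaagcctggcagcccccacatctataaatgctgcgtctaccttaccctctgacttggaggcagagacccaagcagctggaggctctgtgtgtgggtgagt
SFTPA2: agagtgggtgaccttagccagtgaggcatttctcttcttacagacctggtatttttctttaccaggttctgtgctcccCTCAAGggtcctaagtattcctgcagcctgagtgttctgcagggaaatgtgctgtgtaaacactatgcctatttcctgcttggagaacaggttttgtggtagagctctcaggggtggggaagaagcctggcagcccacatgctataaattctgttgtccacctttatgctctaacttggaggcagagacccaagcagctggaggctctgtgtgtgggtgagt
The motif lies at -170 in SFTPA1 and at -172 in SFTPA2, counted from the start to its first base. SFTPA1 and SFTPA2 share 262 of 296 aligned bases (88.5%) in this window. The letters were found on either strand in 4045 of 27305 genes with such a window (14.8%) and in 5 of 15 alveolar type 2 genes tested that matched the table, counting a match in any window of a gene. NAPSA is among the 5 by the window of a start outside the gene as counted, and the window of its start inside the gene holds no match. A match describes the sequence and is not a bound site.

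SFTPA1, which encodes surfactant protein A1, had 0 and 1.01 normalised reads in HCC827, against 1511 and 1660.2 in H441. That is 2875-fold higher in H441, with a 95% counting interval of 515.6 to 113601 (adjusted p = 1.46e-11). SFTPA2 had 0 and 5.06 in HCC827, against 755 and 951 in H441 (adjusted p = 2.23e-09). The transcripts of these genes are near-identical, so how the counting split reads between them is uncertain. SLC34A2, the phosphate transporter of alveolar type 2 cells, had no read in either HCC827 library and 1459.97 and 1498 normalised reads in H441, at least 894-fold higher in H441. NAPSA, an aspartic protease that processes surfactant protein B, had 60.6 and 56.7 in HCC827, against 957 and 981 in H441 (-3.98 ± 0.48, adjusted p = 8.48e-07). HOPX, a homeodomain-only protein, had 9.69 and 11.1 in HCC827, against 219 and 246 in H441 (-4.17 ± 0.28, adjusted p = 1.88e-10). It was counted in the type 2 list but is known mainly from alveolar type 1 cells, and H460 given vehicle had more, with 552 and 588.

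ABCA3 went the other way. This lipid transporter, which loads surfactant lipids into lamellar bodies, had 367 and 393 normalised reads in HCC827, against 25.4 and 26.0 in H441 (3.75 ± 0.23, adjusted p = 6.73e-11). CTSH, a protease that also processes surfactant protein B, was called higher (0.91 ± 0.32, adjusted p = 0.0241), but the call was lost when any 1 library was left out (adjusted p of 0.0623 to 0.133). SFTPB itself, with 19.4 and 37.5 in HCC827 and 58.5 and 97.7 in H441, did not pass the threshold (-1.40 ± 0.63, adjusted p = 0.0815). It passed, also as lower in HCC827, after median centring (adjusted p = 0.0417) and quantile normalisation (0.0461), with the 8 vehicle libraries (0.0119) and with voom on the recovered reads (0.00729). NKX2-1 had 1022 and 951 in HCC827, against 1735 and 1759 in H441, a difference of -0.82 ± 0.46 that did not pass (adjusted p = 0.161). It passed when the fit held only the 4 libraries compared (adjusted p = 0.00104) and with voom on the recovered reads (adjusted p = 2.22e-07). Both lines were well above H460, with 0 and 0, and H1703, with 5.84 and 1.40 normalised reads. Those libraries of few reads also enter the SE of the full fit, so not passing there does not show that NKX2-1 is equal in HCC827 and H441.

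Among the club and secretory genes, CYP2B7P, a cytochrome P450 pseudogene of the lung, had 1.21 and 2.03 normalised reads in HCC827, against 952 and 1156 in H441. AGR2, a disulfide isomerase of mucus-secreting cells, had 40.0 and 69.9 in HCC827, against 671 and 666 in H441 (-3.59 ± 0.40, adjusted p = 3.32e-06). Mucin genes followed: 11 of 21 mucins and mucin-glycosylating enzymes were lower in HCC827 and 4 higher. MUC1, a membrane mucin of glandular epithelium, had 46.1 and 31.4 in HCC827, against 5255 and 5559.9 in H441 (-7.05 ± 0.21, adjusted p = 7.21e-16), the largest difference of the list among the members with reads in every library. MUC5B, the secreted mucin of the small airways, was instead higher in HCC827, with 90.9 and 142 normalised reads, against 0 and 3.26 in H441. Of 21 epithelial ion channels and transporters 12 were lower and 4 higher. AQP4, a water channel of alveolar and airway cells, had 0 and 0 in HCC827, against 130.3 and 271 in H441.

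Of 27 epithelial junction genes 12 were lower and 1 higher in HCC827, with a median of -0.94. The other 14 did not pass the threshold, and 48.1% called is under the 57.6% of protein-coding genes. After median centring 16 were lower and 1 higher, and after quantile normalisation 13 and 2. CDH1, which encodes E-cadherin, had 3679 and 3711 normalised reads in HCC827, against 8642 and 8697 in H441 (-1.23 ± 0.23, adjusted p = 0.000156). The other lines had next to none, with 0 and 0.787 in H460 and 6.82 and 9.11 in H1703. Those libraries also enter the SE of the full fit, so a junction gene that did not pass is not shown to be equal in HCC827 and H441. TJP3, a tight junction scaffold, had 42.4 and 81.0 in HCC827, against 500.3 and 596 in H441. RAB25, a GTPase of epithelial membrane recycling, had 2.42 and 11.1 in HCC827, against 147 and 189 in H441. Keratins KRT18 and KRT19 were lower as well, by -0.88 ± 0.08 (adjusted p = 1.07e-08) and by -1.32 ± 0.41 (adjusted p = 0.0255). The call for KRT19 was lost when any 1 of the 4 libraries was left out, with adjusted p of 0.0639 to 0.0798.

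Of 25 mesenchymal genes 10 were higher and 5 lower in HCC827, with a median of 0.48. VIM, the intermediate filament vimentin, had 3889 and 3699 normalised reads in HCC827, against 2.21 and 3.26 in H441 (9.54 ± 0.31, adjusted p = 2.48e-09). Its antisense partner VIM-AS1 had 665 and 689.6 in HCC827 and none in H441, and no source used here says whether counting used strand, so their reads cannot be told apart where the genes overlap. CDH2, or N-cadherin, had 587 and 465 in HCC827 and no read in H441, at least 317-fold higher. CD44, the hyaluronan receptor, had 6704 and 6507 in HCC827, against 2.21 and 0 in H441. Not all mesenchymal genes went this way. CDH11, a cadherin of mesenchymal cells, had no read in HCC827 and 2766 and 2749.6 in H441, at least 1666-fold higher in H441, and AXL was lower in HCC827, with 194 and 143, against 395 and 399 in H441. AXL did not pass without HCC827 library 2 (adjusted p = 0.0726). The cadherins thus differed in kind: E-cadherin with N-cadherin in HCC827, and E-cadherin with CDH11 in H441. Because these are bulk libraries, fewer cells expressing a gene and less RNA of it per cell cannot be told apart.

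Matrix and adhesion genes were more often higher than lower in HCC827, at 16 and 9 of 34 integrins, laminins and collagens. LAMB1, a laminin chain of basement membranes, had 3539.9 and 3775 normalised reads in HCC827, against 21.0 and 16.3 in H441 (7.43 ± 0.11, adjusted p = 8.23e-21). ITGA6, a laminin-binding integrin, had 2951 and 2689 in HCC827, against 36.4 and 4.34 in H441. COL4A2, a basement membrane collagen, had 776 and 756 in HCC827 and none in H441. The metalloproteases split: MMP2 had 143 and 277 in HCC827 and 0 and 0 in H441, whereas MMP14, its known activator, had 9.69 and 12.2 in HCC827, against 2439.5 and 2369 in H441 (-7.48 ± 0.59, adjusted p = 9.42e-07). YAP and TGF-beta targets were higher for 16 and lower for 4 of 27, with a median of 0.78. ANKRD1, a YAP target, had 797 and 745 in HCC827, against 8.83 and 4.34 in H441 (6.45 ± 0.38, adjusted p = 2.63e-10). CCN2, another, had 102 and 100.3 in HCC827, against 3.31 and 1.09 in H441, and its call was lost with voom on the recovered reads (adjusted p = 0.474).

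**Figure D3:**
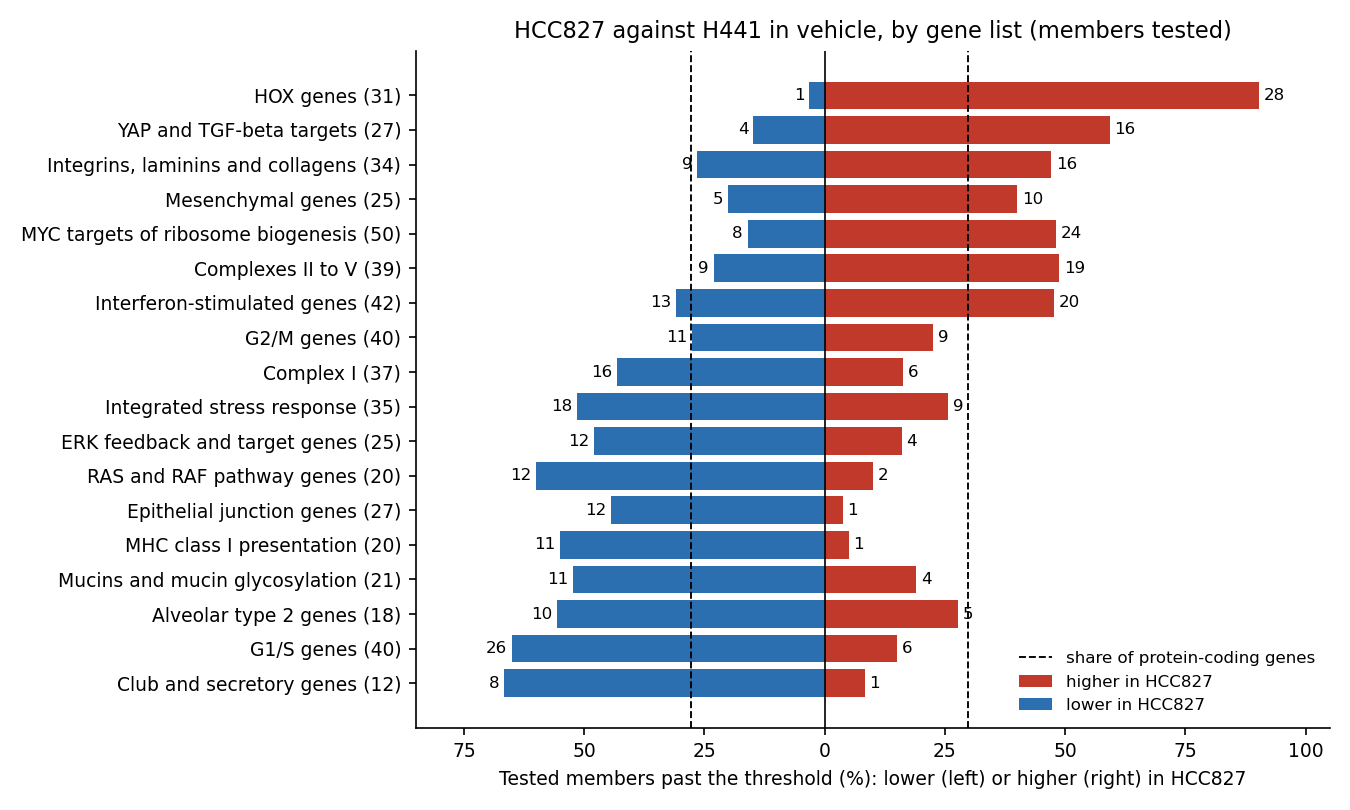
Share of the tested members of 18 gene lists past the threshold, in percent, with members higher in HCC827 to the right in red and lower to the left in blue; the number at each bar is a count of genes, the number in brackets after a list's name is how many were tested, and dashed lines mark the shares over the protein-coding genes tested (29.8% and 27.8%). HOX genes have 28 of 31 members higher in HCC827, and the alveolar, club and G1/S lists lean to lower.

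The HOX genes, which encode the homeodomain factors that set position along the body axis and lie in 4 clusters, were nearly silent in H441. Of 39 listed, 33 were in the table and 31 were tested; 28 were higher in HCC827 and 1 was lower. The median difference was 4.24, or 4.01 with genes at 0 reads set to their bound. HOXB7 had 347 and 351 normalised reads in HCC827 and none in H441, at least 213-fold higher. HOXA3 had 181 and 214 in HCC827 and none in H441, HOXC10 149 and 183 and none, and HOXB6 145 and 151 and none. Of the HOXA, HOXB and HOXC genes the highest in H441 was HOXB3, with a mean of 5.97 normalised reads, against 80.5 in HCC827. HOXD1 was the exception that was lower in HCC827, with 0 and 4.05, against 17.7 and 18.4 in H441 (-2.78 ± 0.71, adjusted p = 0.00295). HOXD1 did not pass without HCC827 library 1 (adjusted p = 0.0907) or with only the 4 libraries compared (0.0582). HOXB13 did not pass (adjusted p = 0.0856), and HOXD13 had no read in any of the 4 libraries. The other lines also expressed HOX genes, each with its own set: HOXB7 had 532 and 488 in H460 and 0 and 0 in H1703, while HOXC8 had 110.3 and 113 in HCC827 and 1288 and 1176 in H1703.

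**Figure D4:**
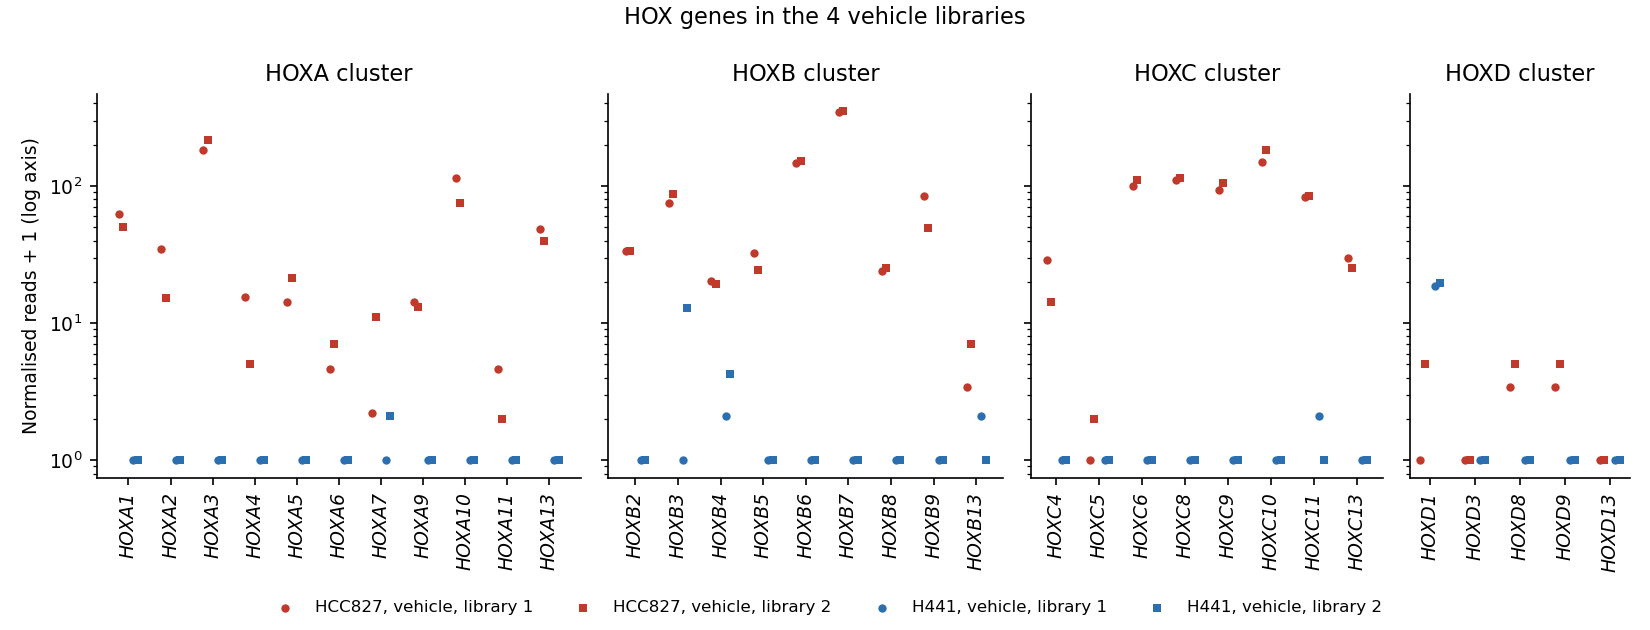
Normalised reads plus 1 on a log axis for the HOX genes in the table, by cluster, with HCC827 in red left of H441 in blue, circles for library 1 and squares for library 2. In the HOXA, HOXB and HOXC clusters most H441 points sit at 1 (0 reads), and HOXB7 is the highest in HCC827, at 347 and 351.

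A stretch of chromosome 12 gave next to no reads in H441. Between PUS7L and SCAF11 (chr12:43718993-45992120, 2.27 Mb) 15 genes of any type were in the table, and 14 of them had 0 reads in all 4 H441 libraries, vehicle and combination alike. All 8 protein-coding genes were among these, and 6 of the 8 had at least 20 reads in both HCC827 vehicle libraries. SCAF11, a splicing-associated factor, had 3313 and 3361 normalised reads in HCC827 and 0 and 0 in H441, at least 2034-fold higher in HCC827. ARID2, a subunit of the PBAF chromatin remodelling complex, had 939 and 917 in HCC827 and none in H441, at least 565-fold higher. TWF1, an actin-binding protein, had 2328 and 2238, ANO6, a phospholipid scramblase, 2197 and 2256, and PUS7L, a pseudouridine synthase-like protein, 1797 and 1617 in HCC827, all with 0 and 0 in H441. IRAK4, the kinase of Toll-like receptor signalling, had 135 and 148 in HCC827 and none in H441. These genes were expressed in the other lines as well: SCAF11 had 3125 and 3172 in H460 and 2807 and 2916 in H1703.

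The far edge of the stretch was sharp. SLC38A1, the amino acid transporter just beyond SCAF11, had 3148 and 3226 normalised reads in HCC827 and 2741 and 2387 in H441 (0.32 ± 0.08, adjusted p = 0.00339), a call lost after median centring (0.12, adjusted p = 0.289) and without H441 library 2 (adjusted p = 0.0884). SLC38A2, after it, had 3165 and 2857 in HCC827 and 3192 and 3089 in H441 and did not pass (-0.06 ± 0.21, adjusted p = 0.856). On the near side ADAMTS20, a metalloprotease, was at 0 in H441 too but had only 0 and 2.03 in HCC827, and PRICKLE1, the planar polarity gene before it, had 555 and 532 in HCC827, against 4.42 and 6.51 in H441. The gene with reads in H441 inside the stretch was PLEKHA8P1, a pseudogene, with 101 and 68.9 in HCC827, against 1.10 and 4.34 in H441. DENND5B, on the same chromosome but farther off, had 1292 and 1245 in HCC827 and none in H441. Whether this DNA is present in H441 was not measured. The stretch was singled out after its values were seen.

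**Figure D5:**
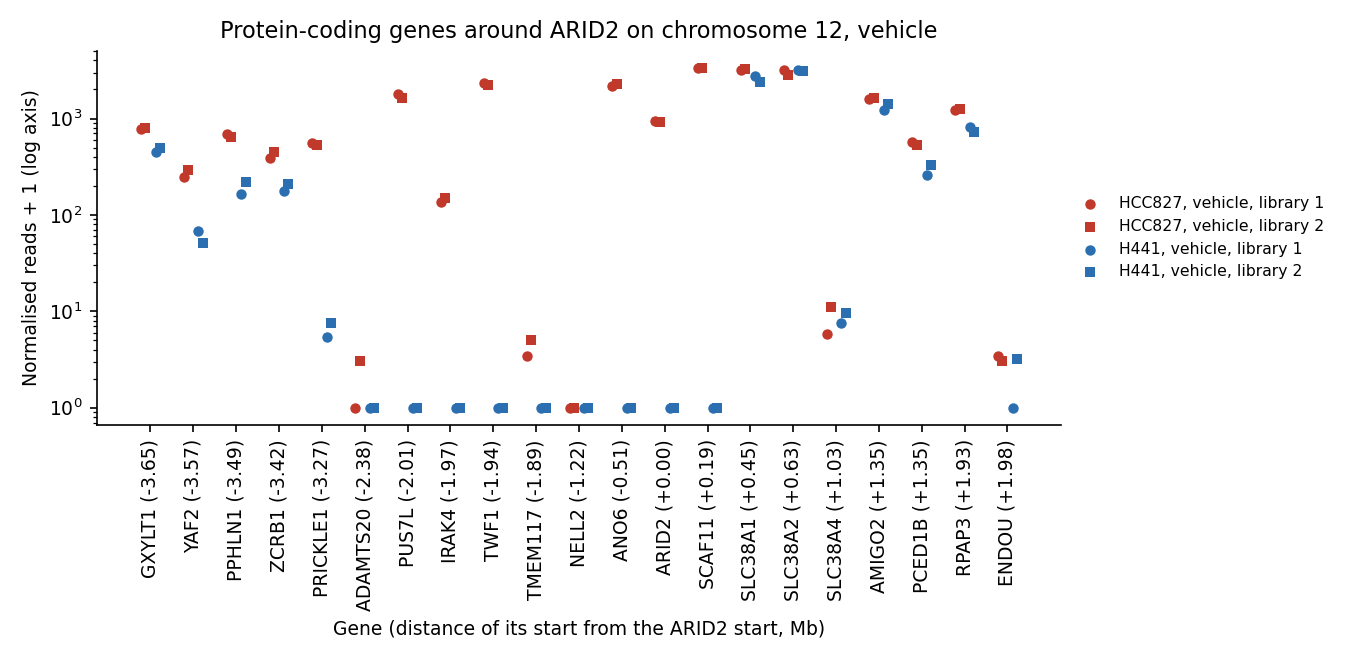
Normalised reads plus 1 on a log axis for protein-coding genes in chromosomal order around ARID2, each labelled with the distance of its start from the ARID2 start in Mb; HCC827 is red and left, H441 blue and right. From PUS7L to SCAF11 every H441 point is at 1 (0 reads), while SLC38A1 and SLC38A2 beside the stretch lie at about the same level in both lines.

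Runs of neighbouring genes that H441 lacked and HCC827 expressed were found at 8 places, and none was found the other way round. A run was at least 3 protein-coding genes in a row with fewer than 3 reads over both libraries of 1 line and at least 20 reads in each library of the other. Beside the HOXB and HOXC clusters and the chromosome 12 stretch, which holds 2 of the runs, they lay on chromosomes 6, 17, 20 and X. The run on chromosome 6 is a group of histone genes. H4C6 had 636 and 756 normalised reads in HCC827 and none in H441, and H2BC10 413 and 446 and none; histone genes have close copies, so reads of 1 copy can be counted for another. On chromosome X, BEX3 and TCEAL9 had 611 and 534 and 361 and 398 in HCC827, and none in H441. On chromosome 20, ADA, or adenosine deaminase, had 83.6 and 88.1 in HCC827 and none in H441. On chromosome 17, IGF2BP1, an RNA-binding protein of fetal tissue, had 555 and 561 in HCC827, against 1.10 and 0 in H441.

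Silent genes were more frequent in H441 one by one, too. There were 165 protein-coding genes with at most 3 reads over the H441 vehicle libraries and at least 100 normalised reads in both HCC827 libraries, and 112 of them had 0 reads. The reverse held for 41 genes, 20 of them with 0 reads. In the combination libraries, 141 of the 165 were still at or under 3 reads in H441 and 33 of the 41 in HCC827. Of the 165, 47 had at least 100 normalised reads in both H460 and H1703 as well, and 13 had at most 3 reads in both. Of the 41, 5 had at least 100 in both other lines and 17 had at most 3 reads in both. Those high in HCC827 included CCBE1 and HAVCR1. CCBE1, a regulator of lymphatic growth, had 2500.1 and 2194 in HCC827 and none in H441, and HAVCR1, a membrane receptor known from injured kidney, had 1973 and 1814 and none. Those high in H441 included ROBO1, a receptor for SLIT guidance proteins, with 0 and 0 in HCC827 and 733 and 636 in H441, and KDR, a VEGF receptor, with 0 and 0 in HCC827 and 465 and 513 in H441.

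Neighbouring genes also differed together with smaller steps. Over 14083 windows of 25 consecutive tested protein-coding genes, 95% of the medians lay between -0.87 and 0.99. The highest window was that of the HOXA cluster (chr7:26152240-29917066), with a median of 3.08 and 23 genes higher and 1 lower in HCC827. The next were those of HOXB (2.31, with 17 higher and 2 lower) and EGFR (2.28, with 17 and 2), and one that ends with the chromosome 12 stretch (2.16, with 22 and 1). The last spans 13.59 Mb from FGD4 to SCAF11, and most of it lies before the stretch. There KIF21A had 1150 and 1290 normalised reads in HCC827, against 246 and 298 in H441. PKP2 was the gene that was lower in HCC827. On chromosome 20 (chr20:2835314-5010293) 21 of 25 genes were higher and none lower, with a median of 1.80; PRNP, the prion protein, had 3401 and 3466 normalised reads in HCC827, against 816 and 817 in H441 (2.07 ± 0.07, adjusted p = 3.44e-15). At the low end, on chromosome 17 (chr17:28347177-28951771), 22 of 25 genes were lower in HCC827 and none higher, with a median of -1.41. TRAF4, a signalling adaptor, had 139 and 146 there in HCC827, against 1052 and 939 in H441 (-2.78 ± 0.10, adjusted p = 2.16e-14), and RPL23A, a ribosomal protein, 2226 and 2383 in HCC827, against 5879.6 and 6159 in H441. On chromosome 16 (chr16:29483642-30189076) 21 of 25 genes, MAPK3 among them, were lower and none higher, with a median of -1.39.

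Whole chromosomes leaned too. On chromosome 9 the median difference of 601 protein-coding genes was 0.71, with 362 higher and 74 lower in HCC827. Chromosome 2 had 380 higher and 158 lower of 978 (median 0.26). The lean was the other way on chromosome 21, which had the lowest median, with 26 higher and 63 lower of 131 (median -0.41). It was so too on chromosome 8, with 122 and 226 of 496 (-0.39), and on chromosome 22, with 51 and 159 of 339 (-0.39). Chromosome 5, with 119 and 309 of 691 (-0.34), and chromosome 4, with 88 and 243 of 544 (-0.33), followed. Centring the libraries lowers each such median by the shift given above, which turns no sign on chromosome 9 and leaves chromosome 2 near 0.

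CDK4, the kinase that pairs with cyclin D, had 8170.4 and 8113 normalised reads in HCC827, against 567 and 509 in H441 (3.92 ± 0.12, adjusted p = 1.31e-15). It stood out in HCC827, as H460 had 619 and 592 and H1703 445 and 480. The genes next to it on 1 side shared this: OS9, a lectin of protein quality control, had 33165 and 32748 in HCC827, against 2253 and 2260.2 in H441, and TSPAN31 3376 and 3533 in HCC827, against 313 and 281 in H441. PIP4K2C, a lipid kinase, had 7131 and 6968 in HCC827, against 729 and 686 in H441. On the other side METTL1, an RNA methyltransferase, had 150.3 and 162 in HCC827 and 149 and 152 in H441 and did not pass (0.05 ± 0.19, adjusted p = 0.868). Within 2 Mb of CDK4, 24 of 80 genes were higher and 18 lower, close to the shares over protein-coding genes. This neighbourhood was looked up after its values were seen.

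The cell cycle inhibitors differed in opposite directions. CDKN2A, which encodes p16 and ARF, had 989 and 1095 normalised reads in HCC827, against 126 and 99.8 in H441 (3.18 ± 0.21, adjusted p = 1.2e-10), and its neighbour CDKN2B 368 and 365 in HCC827, against 70.7 and 80.3 in H441 (2.24 ± 0.24, adjusted p = 2.2e-07). H460 had none of either. CDKN1A, or p21, had 25.4 and 26.3 in HCC827, against 218 and 199.7 in H441 (-2.88 ± 0.20, adjusted p = 3.27e-10). G1/S genes, which act in DNA replication and its onset, were lower for 26 and higher for 6 of 40, with a median of -0.59. MCM3, a subunit of the replicative helicase, had 1349 and 1386 in HCC827, against 4510.2 and 4259 in H441 (-1.68 ± 0.07, adjusted p = 1.87e-13), and E2F1 238 and 219 in HCC827, against 695 and 572 in H441 (-1.46 ± 0.15, adjusted p = 1.07e-07). POLA1, the polymerase that lays primers, was the opposite, with 3814 and 3746 in HCC827, against 797 and 754 in H441 (2.28 ± 0.08, adjusted p = 3.14e-15). G2/M genes showed no such lean, with 9 higher and 11 lower of 40 and a median of -0.04; this split turned with the scaling, to 4 higher and 18 lower after median centring and 11 higher and 8 lower after quantile normalisation.

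MYC, the target of MYCi975, had 2092 and 2068 normalised reads in HCC827, against 953 and 994 in H441 (1.09 ± 0.11, adjusted p = 9.58e-08). Of 50 MYC targets of ribosome biogenesis 24 were higher and 8 lower in HCC827, with a median of 0.26; after median centring 18 were higher and 13 lower, with a median of 0.06. NOP56, a nucleolar protein, had 1143 and 1079 in HCC827, against 263 and 273 in H441 (2.04 ± 0.09, adjusted p = 2.33e-13). It lies on chromosome 20 near the window described above. MYBBP1A, a nucleolar repressor, was higher by 1.68 ± 0.10 (adjusted p = 5.59e-11). Of the class IIa deacetylases, the targets of TMP195, 3 of 4 were higher in HCC827. HDAC9 had 271 and 302 in HCC827, against 51.9 and 46.7 in H441 (2.48 ± 0.26, adjusted p = 1.49e-07). HDAC5 was higher by 0.56 ± 0.12 (adjusted p = 0.0005) and HDAC4 by 0.53 ± 0.12 (adjusted p = 0.00112). HDAC7, with 879.8 and 708 in HCC827 and 832 and 904 in H441, did not pass (-0.14 ± 0.13, adjusted p = 0.42).

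Antigen presentation genes were more often lower than higher in HCC827. Of 20 MHC class I presentation genes 11 were lower and 1 was higher, with a median of -0.76. The lower ones include CALR, CANX and PDIA3, which are not specific to antigen presentation. PSMB9 was the gene called higher (0.93 ± 0.31, adjusted p = 0.0187). The other 8, among them B2M, TAP1, TAP2, PSMB10 and NLRC5, did not pass, so the list does not show a lower level of every step. HLA-B had 8.48 and 13.2 normalised reads in HCC827, against 188 and 189.9 in H441 (-3.85 ± 0.28, adjusted p = 6.34e-10). HLA-C, with 60.6 and 59.7 in HCC827 and 61.8 and 61.8 in H441, did not pass (-0.04 ± 0.55, adjusted p = 0.992). These genes are polymorphic and alike, so reads may be lost or shared between them in a way that depends on the alleles of a line. ERAP2, which trims peptides for these molecules, had 60.6 and 74.9 in HCC827, against 909 and 909 in H441 (-3.70 ± 0.15, adjusted p = 5.06e-14). Interferon-stimulated genes had no common direction, with 20 higher and 13 lower of 42. IFI44L had 785 and 1125 in HCC827, against 37.5 and 29.3 in H441 (4.71 ± 0.23, adjusted p = 1.46e-12), and GBP1, a guanylate-binding protein, 390.2 and 456 in HCC827, against 17.7 and 17.4 in H441. IDO1, the tryptophan-degrading enzyme, had 1.21 and 1.01 in HCC827, against 98.3 and 84.6 in H441. Of the chemokines, CXCL5 had 241 and 182 in HCC827 and none in H441.

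Serine synthesis and the stress response differed enzyme by enzyme. PHGDH, the first enzyme of serine synthesis, had 276 and 278 normalised reads in HCC827 and none in H441, at least 169-fold higher, whereas H460 had 520.4 and 557 and H1703 1249 and 1134. PSAT1, the next enzyme, had 1077 and 874 in HCC827, against 508 and 458 in H441 (1.00 ± 0.10, adjusted p = 1.11e-07), and PSPH, the last, was higher as given above. SHMT2, which turns serine to glycine in mitochondria, had 1188 and 1144 in HCC827, against 394 and 411 in H441 (1.53 ± 0.09, adjusted p = 1.58e-11). Other genes of the integrated stress response were lower. SLC7A11, the cystine importer, had 217 and 185 in HCC827, against 1564 and 1447 in H441 (-2.89 ± 0.09, adjusted p = 1.83e-15), and ASNS, asparagine synthetase, 4.85 and 5.06 in HCC827, against 43.1 and 41.2 in H441 (-2.58 ± 0.36, adjusted p = 4.99e-06). Over the 35 genes of that list, 18 were lower and 9 higher.

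The title of the series names mitochondria. Of 37 nuclear genes for respiratory complex I, 16 were lower and 6 higher in HCC827, with a median of -0.24. NDUFB10 had 228 and 241 normalised reads in HCC827, against 742 and 798 in H441 (-1.70 ± 0.11, adjusted p = 9.43e-11), and NDUFS4 345 and 334 in HCC827, against 908 and 896 in H441 (-1.40 ± 0.09, adjusted p = 2.13e-10). Genes of complexes II to V leaned the other way, with 19 higher and 9 lower of 39, but 10 higher and 11 lower after median centring. The 13 mRNAs encoded in mitochondrial DNA had 7 higher and none lower, but 2 higher after median centring and 5 higher after quantile normalisation. MT-CO1 had 88494 and 91293 in HCC827, against 59898 and 59652 in H441 (0.59 ± 0.05, adjusted p = 3.6e-09); after quantile normalisation its difference was 0.0 (adjusted p = 1.0). Quantile normalisation sets values by rank within each library, so the 0.0 for MT-CO1 describes its rank and does not measure the difference in reads. The share of mitochondrial reads given at the start was higher in HCC827 as well, but it is mostly the ribosomal RNA MT-RNR2 and says little about these mRNAs. SLC16A1, the lactate transporter MCT1, had 3610.2 and 3205 in HCC827, against 90.6 and 83.6 in H441 (5.25 ± 0.10, adjusted p = 4.87e-19), and ALDOC, a glycolytic aldolase that lies in the low window of chromosome 17, 29.1 and 47.6 in HCC827, against 712 and 877 in H441 (-4.31 ± 0.33, adjusted p = 1.51e-09).

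The same lines given the combination share no library with this comparison and gave a similar difference. In combination 11113 of the 23968 genes (46.4%) passed, 5901 (24.6%) higher and 5212 (21.7%) lower in HCC827. Across the 23968 genes, which are not independent replicates and share the annotation and the line pair, the differences in vehicle and combination had a Pearson r of 0.883 and a Spearman rho of 0.76. Of the 10714 genes called in vehicle, 8528 (79.6%) were called in the same direction in combination and 61 in the opposite one. Of the 1448 that differed by at least 3, 1430 were called in the same direction and none in the opposite one. The test of the change between treatments called 481 genes (2.01%), the line difference being higher in combination for 167 (0.697%) and lower for 314 (1.31%), or 34.7% higher; after quantile normalisation it was higher for 245 and lower for 260 (48.5% higher). Of the 481, 174 (0.726%) changed by at least 1. As a measure of how far lines differ in general, H460 minus H1703 in vehicle, which uses other libraries, called 11127 genes (46.4%).

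Some lists did move with treatment. G2/M genes had 1 higher and 33 lower of 40 in combination, and the median was -0.81, where vehicle gave -0.04. Cholesterol synthesis genes had 0 higher and 18 lower of 24 in combination, and 5 higher and 10 lower in vehicle. Integrated stress response genes had 18 higher and 9 lower of 35 in combination, with a median of 0.52, where vehicle gave -0.37. The difference between treatments was tested gene by gene and not for these lists. HOX genes had 26 higher and 1 lower of 31 in combination, and the alveolar type 2 list 3 higher and 9 lower of 18. SFTPA1 remained lower in HCC827 in combination, with 0 and 0, against 111 and 197 in H441.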

How the data were processed

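RNA was measured in 16 libraries, and per the labels' protocols a NucleoSpin kit isolated it and a SMARTer kit made stranded libraries of total RNA. The submitters' processing notes name Trimmomatic, STAR and featureCounts, without versions, and the build hg38 (GRCh38); no source used here states whether counting used strand. The authors deposited variance-stabilised log2 values of 28951 genes. Inverting the transformation recovered reads that were whole to 0.02 for 100% of the values (the lowest value, 0.480538, is 0 reads), with 8493271 to 13604150 reads per library, and normalised reads are those reads over the size factors.

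Genes whose mean lay at least 1 above the lowest value (23968) were tested with limma 3.58.1 (R 4.3.3; trend and robust empirical Bayes) in a single fit of 8 group means, with Benjamini-Hochberg adjustment over all genes and a threshold of 0.05. The fit was tested on simulated data. Where a group had 0 reads, folds are bounds set against 3 reads in the group's sum; groups of 1 to 3 reads get a ratio with a 95% counting interval; both cover counting error only. Symbols and positions are from GENCODE 29 (28846 IDs), and promoter windows from RefSeq (GRCh38.p14), aligned with Biopython 1.88. Tables and figures were made in Python 3.11.15 with numpy 2.4.6, pandas 2.3.3 and matplotlib 3.10.9.

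The comparison, the gene lists and the rule for named genes were chosen with earlier results of these data known. The rule took the 15 called protein-coding genes (at least 100 normalised reads in both libraries of the higher line) with the largest difference each way, 5 long non-coding RNA genes each way by the same rule, up to 4 called members of each list, set genes such as EGFR, MYC and NKX2-1, and genes of the highest and lowest windows and of each silent run; some of the genes it names are not reported here. Further members of the lists, the flanks of the chromosome 12 stretch, the genes beside CDK4 and other members of the silent sets were named after their values were seen. Alternatives were 2 other scalings, no filter, plain empirical Bayes, fewer libraries in the fit, a replicate block, voom on recovered counts (genes with at least 10 reads), windows of 15 and 41 genes, and leaving out each library.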

Additional observations from a re-analysis of the deposited data

Results flagged for a closer look

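For 23 of the genes named the difference between HCC827 and H441 was not the same in combination as in vehicle, by limma's test of the change between treatments. Each value below is that change (combination difference minus vehicle difference, log2 scale) with its adjusted p. At the 0.05 threshold 2.01% of all genes passed, so the number here has to be read against that share.

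AQP4 had 0 and 0 normalised reads in HCC827 given vehicle, against 130.3 and 271 in H441 given vehicle and 7.05 and 5.45 in H441 given the combination, a change of 4.44 (adjusted p = 0.0165). HOPX changed by -2.05 (adjusted p = 0.00736) and BEX2 by 2.11 (adjusted p = 0.00808). SYCP3, a protein of meiotic chromosomes, changed by 2.69 (adjusted p = 0.00147), BTG2, an antiproliferative gene, by 2.00 (adjusted p = 0.019), and ELOVL6, a fatty acid elongase, by -1.58 (adjusted p = 3.51e-05). ELOVL6 was 2.17 higher in HCC827 in vehicle and 0.59 higher in combination.

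SLC7A11 and CDKN1A were lower in HCC827 under both treatments with a narrower gap in combination: the change was 1.48 (adjusted p = 4.43e-06) for SLC7A11 and 1.32 (adjusted p = 0.0154) for CDKN1A. The change was -0.88 for CENPF (adjusted p = 0.0267), -0.80 for KIF18A (adjusted p = 0.0223) and -0.72 for NSDHL (adjusted p = 0.025); CENPF and KIF18A act in mitosis and NSDHL in cholesterol synthesis. The gap was still large in combination for NRG1 (change -1.04, adjusted p = 0.0312), EPB41L3 (-0.92, adjusted p = 0.0149), PLCB4 (-0.86, adjusted p = 0.00728), SLC16A1 (-0.58, adjusted p = 0.033) and EGFR (-0.38, adjusted p = 0.0189). In vehicle the difference was 5.29 for EGFR, and in combination it was 4.90.

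Among genes named outside the rule, ABCA3 changed by 1.60 (adjusted p = 0.0133), with a difference of 3.75 in vehicle and 5.35 in combination. The change was 0.90 for PSAT1 (adjusted p = 0.0025) and 0.64 for SHMT2 (adjusted p = 0.00728), both also higher in HCC827 under either treatment. VEGFA changed by 0.84 (adjusted p = 0.00352), FOSL1 by -0.92 (adjusted p = 0.00589) and PRNP by -0.50 (adjusted p = 0.00786). DUSP4 changed by -1.19 (adjusted p = 0.046), with a difference of 1.15 in vehicle and -0.04 in combination.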

How the results depend on the processing

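The count of genes called between HCC827 and H441 in vehicle stayed within 1.5 times of 10714 under every alternative: 10650 to 10767 with other scalings or voom, 11149 without the filter, 9952 with plain empirical Bayes, 10995 with the 8 vehicle libraries and 9869 with the 4 libraries compared. Leaving out a library gave 8995 to 9124. In combination the range was 9481 to 11690, and 9504 to 9629 without a library. For H460 minus H1703 it was 10568 to 12560, and 9274 to 9682 without a library. The count for the change between treatments was the least stable: 481 fell to 102 with plain empirical Bayes and lay between 195 and 479 without a library (195 without HCC827 vehicle library 1, 207 without HCC827 combination library 2 and 264 to 313 without any 1 of the H441 libraries); with a difference of at least 1 it was 87 to 189. The cause was not tested. Same-numbered vehicle libraries of HCC827 and H441 hardly deviated together, with a correlation of their deviations of 0.041. It was 0.078 for the combination libraries of these lines. The highest for any pair of groups was 0.18, for H460 in vehicle and in combination. With a replicate block the counts were 10759 in vehicle, 11128 in combination and 499 for the change. Of 287 named genes, 248 kept their call and direction under all alternatives run. The genes that changed sign were not called in any of the fits concerned. Median centring gave -0.15 for CCND1, -0.15 for COBL, -0.0852 for FIGNL1 and -0.15 for METTL1, quantile normalisation 0.0761 for KRT7, -0.011 for METTL1 and 0.0331 for SLC38A2, and voom 0.0172 for HOXD13. With a library left out HDAC7 lay between -0.29 and 0.0211, KRT7 between -0.0744 and 0.0377, METTL1 between -0.0021 and 0.10 and SLC38A2 between -0.14 and 0.0116. Median centring moved 17 of 46 list medians by more than the spread between libraries. The highest window median was 5.54 with 15 genes and 1.75 with 41; the lowest was -1.73 and -1.31. Depth limits genes of few reads, whose intervals cover counting error only.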

Other observations

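Of 22 drug and retinoid metabolism genes 3 were higher and 9 lower in HCC827 (54.5% called, against 57.6% of protein-coding genes). ABCC2, an exporter of conjugated compounds, had 869 and 804 normalised reads in HCC827, against 16.6 and 9.77 in H441 (5.76 ± 0.22, adjusted p = 3.74e-14). CYP1A1, a cytochrome P450 induced by aryl hydrocarbons, had 156 and 149 in HCC827, against 3.31 and 2.17 in H441 (4.93 ± 0.65, adjusted p = 3.01e-06). GSTM1, a glutathione transferase, had 0 and 0 in HCC827, against 25.4 and 36.9 in H441. Of 32 NRF2 targets 6 were higher and 12 lower in HCC827. Among 10 tested cancer-testis antigens 4 were higher and none lower (40.0% called), and MAGEB2 had 169.7 and 162 in HCC827 and none in H441. Outside that list, TEX15 had 812 and 759 in HCC827, against 1.10 and 0 in H441, and TDRD1, a protein of the germline piRNA pathway, had 0 and 0 in HCC827, against a mean of 950.5 in H441.

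The next 5 genes were chosen after their values were seen. SOX2, a factor of airway progenitors, had 4.85 and 24.3 normalised reads in HCC827, against 204 and 289.7 in H441 (-4.12 ± 0.55, adjusted p = 3.26e-06). NOTCH3 had 47.3 and 65.8 in HCC827, against 553 and 516 in H441 (-3.20 ± 0.16, adjusted p = 2.58e-12). STC2, a secreted stanniocalcin, had 1659 and 1603 in HCC827, against 0 and 1.09 in H441. VEGFA had 1415 and 1332 in HCC827, against 5747 and 5352 in H441 (-2.01 ± 0.10, adjusted p = 3.41e-12), the line that also expressed KDR. LINC02582, a long non-coding RNA, had 8553 and 8298 in HCC827, against 2.21 and 0 in H441.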
